A study of Mus musculus with 9 samples.

Results

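The genes described here are 48 genes of the mitotic spindle, the spindle checkpoint and the kinetochore, chosen by symbol from a deposited table of 55385 mouse genes. All 48 were present, and all 48 were among the 17680 genes with enough counts to be tested. Expression had been measured by RNA sequencing of total RNA in 9 libraries of the mouse podocyte line MCP5, given as wild type in the labels, with 3 libraries in each of 3 groups. Control cells received no treatment, a second group received high glucose at 50 mmol/L, and the last group received AGEs at 400 µg/mL. AGEs are advanced glycation end products, proteins modified by sugars. Podocytes are the epithelial cells that wrap the capillaries of the kidney glomerulus. The titles number the libraries 1 to 3 in each group and do not say whether they came from separate cultures. The p-values therefore cover library-to-library spread alone, and this spread may be technical. Not given in the sources used here were how long the cells were treated, the glucose of the control medium and any osmotic control.

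A dividing cell condenses its chromosomes, builds a spindle of microtubules and attaches each chromosome to it through the kinetochore, a protein assembly on the centromere. The spindle checkpoint holds the cell in metaphase until all kinetochores are attached, and the anaphase-promoting complex then marks securin and cyclin B for destruction so that the sister chromatids part and the cell divides. The genes of these machines are transcribed mostly in G2 and M phase, under the control of complexes that read CCAAT boxes and cell cycle homology regions (CHR elements) near their start sites. Mature podocytes in the kidney are held to be largely out of the cell cycle, whereas podocyte lines are grown in culture through many divisions.

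Total counts ranged from 46284878 to 77242281 per library. Levels are given below as CPM, counts relative to library size with TMM scaling, and as FPKM, the authors' values per transcript length, wherever genes are compared with each other. In control cells the mean FPKM of the 48 genes ran from 2.6 for Cenpf to 41.1 for Ccna2, with a median of 12.6. The summed CPM of 12 podocyte markers was 985 to 1310 in control, 1250 to 1330 with high glucose and 1410 to 1490 with AGEs. Of these, Ptpro was under 1 CPM in all 3 groups, and Magi2 was under 1 CPM in the control and AGEs groups. AGEs library 3 stood somewhat apart from the other AGEs libraries over all genes: the chi-square per degree of freedom was 110 and 98 against AGEs libraries 1 and 2, and 66.6 between those 2. Results that rest on it are given with and without it.

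Promoter sequence is one property that the choice of genes did not use. RefSeq promoters (GRCm38.p6, 250 bases before to 50 bases after the start) were found for 40 of the 48 genes, 43 promoters in all. CCAAT, read on either strand, stood in 76.7% of them and in 37.4% of all 32851 promoters of the same length. The CHR element TTTGAA, also read on either strand, stood in 76.7% of them and in 17.9% of all promoters. Both motifs stood together in 67.4% of the promoters of these genes and in 6.95% of all promoters. Copies of the 2 motifs overlapped each other in 1 promoter of these genes and in 47 of all promoters. The 120 bases just before the RefSeq start are shown for 5 genes that rose and for Espl1, which was not called, with every CCAAT or TTTGAA match in capitals (ATTGG and TTCAAA are the same motifs on the other strand). These 6 were chosen after their values were seen. The deposited gene spans of Cdk1, Ube2c, Cdc20 and Espl1 begin inside the stretch shown.
Cdk1, chr10:69352913-69353032, minus strand: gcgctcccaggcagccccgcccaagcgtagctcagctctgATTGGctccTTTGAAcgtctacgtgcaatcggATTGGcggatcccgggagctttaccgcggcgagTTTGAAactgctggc
Ube2c, chr2:164769809-164769928, plus strand: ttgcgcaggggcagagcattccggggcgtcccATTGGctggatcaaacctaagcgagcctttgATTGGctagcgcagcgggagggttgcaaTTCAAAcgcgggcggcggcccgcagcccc
Cdc20, chr4:118437344-118437463, minus strand: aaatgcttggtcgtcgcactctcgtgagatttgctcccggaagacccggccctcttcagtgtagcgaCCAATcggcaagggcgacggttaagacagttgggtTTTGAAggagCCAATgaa
Kif11, chr19:37376262-37376381, plus strand: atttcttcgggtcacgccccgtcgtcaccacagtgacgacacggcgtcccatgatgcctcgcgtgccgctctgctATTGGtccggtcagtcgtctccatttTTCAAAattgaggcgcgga
Top2a, chr11:99024190-99024309, minus strand: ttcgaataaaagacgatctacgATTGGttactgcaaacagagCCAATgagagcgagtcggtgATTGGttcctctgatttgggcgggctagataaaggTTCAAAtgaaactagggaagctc
Espl1, chr15:102296173-102296292, plus strand: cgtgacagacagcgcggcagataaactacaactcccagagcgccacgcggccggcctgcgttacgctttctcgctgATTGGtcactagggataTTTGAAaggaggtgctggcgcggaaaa
All 6 carry at least 1 copy of each motif, but they are picked examples and do not show how common this is before the start. In Aurka, Bub1b and Plk1, for example, the TTTGAA match lay after the start, outside such a stretch. Among promoters of genes that rose in high glucose, 84.8% of 33 held CCAAT and 81.8% held TTTGAA, and among the 10 promoters of genes that did not rise the shares were 50% and 60%. A match is a description of the letters and not of a bound factor. The Espl1 promoter shows both motifs although Espl1 was not called, whereas the promoters of Nuf2, Nusap1 and Pttg1, which all rose more than 2-fold, held neither in this window. Nor did that of Plk4, the 1 gene called lower.

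High glucose against control asked whether raised glucose changed these transcripts. In high glucose 37 of the 48 genes were higher than in control, 1 was lower and 10 were not called (edgeR quasi-likelihood test, Benjamini-Hochberg adjusted p under 0.05 over 17680 genes). Over all genes tested, 19.6% were called higher and 19.7% lower. The median log2 fold change of the 48 was 0.86, against 0.03 over all genes tested, and it ran from -0.53 for Plk4 to 1.94 for Plk1. A called rise of at least 2-fold was seen for 21 of the 48, and for 8.38% of all genes. The groups did not overlap for 40 genes with all 3 high glucose libraries above control and for 1 gene with all below, whereas over all genes 28.3% lay above and 25.8% below without overlap. Since the 48 genes are often transcribed together in the same cells, they are not 48 independent observations. In bulk RNA, more cells in mitosis and more mitotic RNA per cell cannot be told apart.

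Together the 48 genes took up 0.427% ± 0.0335 of all counts in control (SD, n = 3), 0.852% ± 0.0376 with high glucose and 0.45% ± 0.0252 with AGEs. By library the share was 0.436%, 0.455% and 0.39% in control, 0.873%, 0.809% and 0.875% with high glucose, and 0.439%, 0.433% and 0.479% with AGEs. Every high glucose library lay above every other library, and control and AGEs overlapped. As a share of summed FPKM, which counts long and short transcripts alike, the means were 0.222%, 0.489% and 0.236%. Neither share uses the TMM factors. These were 0.959 to 0.974 in control, 1.07 to 1.1 with high glucose and 0.935 to 0.961 with AGEs. With them, as in the CPM given below, high glucose and control lie less far apart than in the shares.

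Sums over markers of other cell types were higher with high glucose too, but not every marker was. Of the markers tested, 4 of 8 parietal, 4 of 4 tubular and 2 of 3 endothelial ones were called higher (edgeR). So were 1 of 6 mesangial and fibroblast markers and 2 of 7 leukocyte markers, and 1 leukocyte marker was called lower. Over all genes tested, 19.6% were called higher and 19.7% lower. A sum can be carried by its most abundant marker. The summed CPM of 8 parietal epithelial markers was 1080 to 1130 in control, 2090 to 2270 with high glucose and 1010 to 1290 with AGEs. The summed CPM of 8 tubular markers was 202 to 216, 667 to 799 and 177 to 282, with Slc34a1, Umod, Slc12a1 and Aqp2 under 1 CPM in all groups. Cubn was also under 1 CPM in the control and AGEs groups. For 8 mesangial and fibroblast markers the sum was 37.8 to 41, 53.7 to 58.4 and 30.7 to 39.2. Itga8, Cspg4 and Pdgfra were under 1 CPM throughout, and Gata3 in high glucose alone. For 8 leukocyte markers it was 77.7 to 87.2, 133 to 144 and 75.4 to 94, with Ptprc and 4 others under 1 CPM in every group, and for 8 endothelial markers 5.48 to 5.85, 12.4 to 15.1 and 4.19 to 4.95, with Pecam1 and Cdh5 among 6 under 1 CPM. The part of any of these in the mitotic result was not tested.

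**Figure D1:**
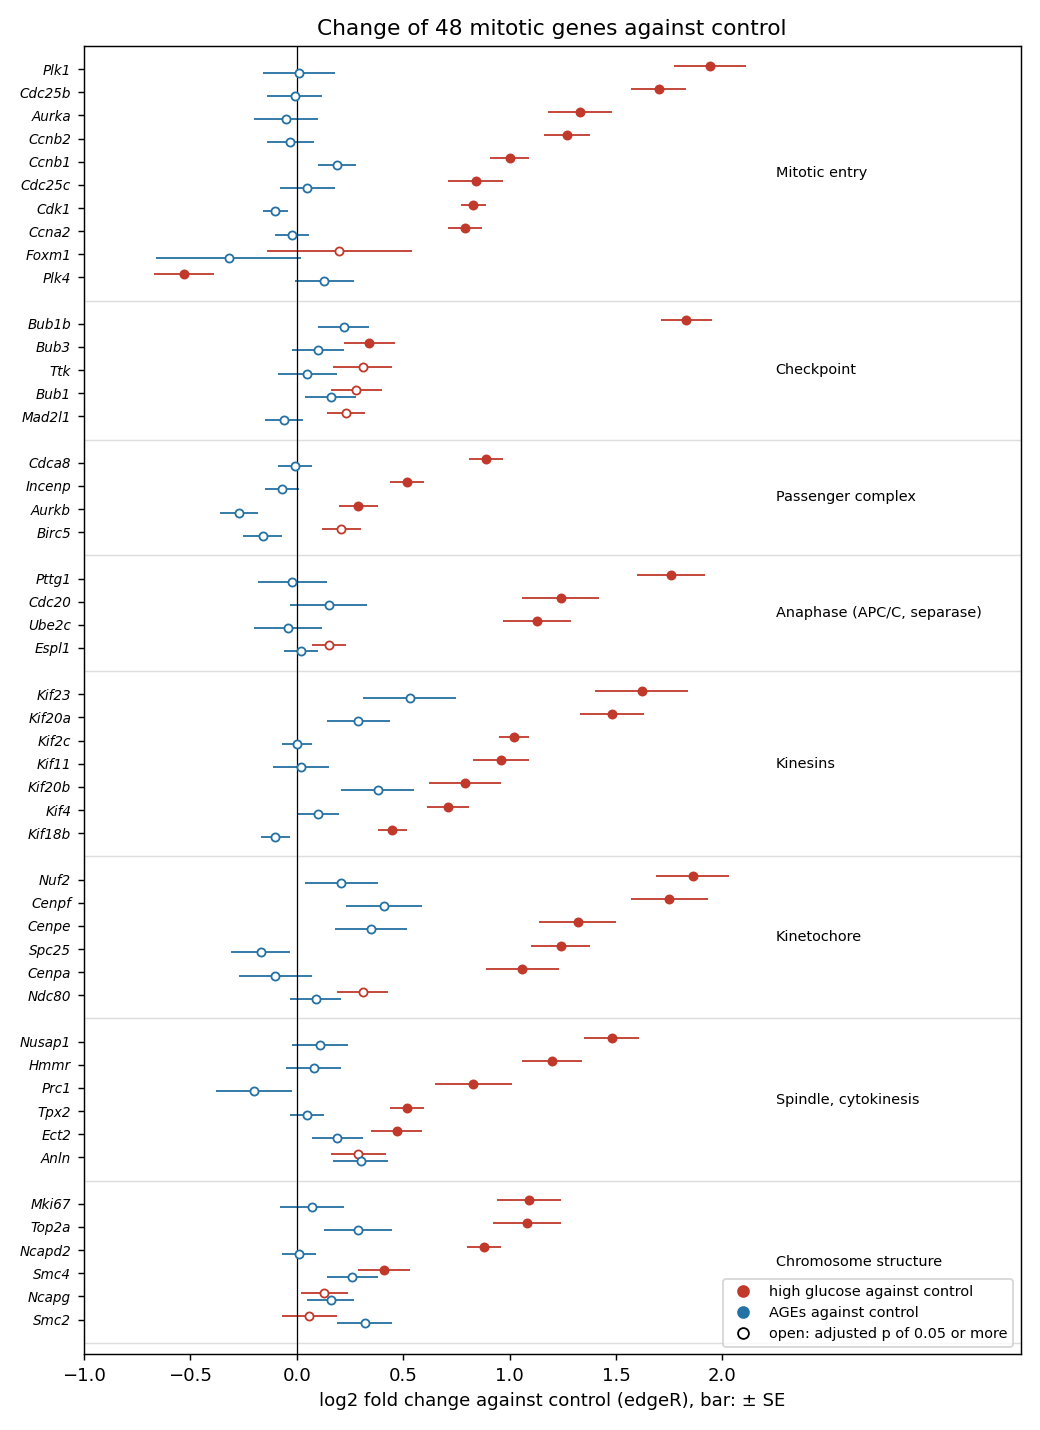
Log2 fold change of each of the 48 genes against control (edgeR, bar ± SE, 3 libraries per group) for high glucose in red and AGEs in blue, grouped by role. Filled points have an adjusted p under 0.05: 38 of the red points are filled, 37 of them to the right of 0, and none of the blue points is.

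The regulators of mitotic entry formed the largest role group, and 8 of its 10 genes rose in high glucose. Cdk1, the kinase that drives mitosis, stood at 191, 177 and 184 CPM in control, 343, 323 and 311 with high glucose and 167, 171 and 177 with AGEs. The high glucose libraries were well apart from the others, a log2 fold change of 0.83 ± 0.06 (SE) against control (edgeR adjusted p = 1.71e-05). Its partner cyclin B1 (Ccnb1) stood at 97, 103 and 92.2 CPM in control, 201, 181 and 202 with high glucose and 98.9, 113 and 122 with AGEs. This was a doubling in high glucose, 1 ± 0.09 on the log2 scale (edgeR adjusted p = 3.84e-05), while the AGEs and control libraries overlapped. Ccnb2, the other B-type cyclin, rose by 1.27, and Ccna2, the A-type cyclin that acts in S phase and G2, rose by 0.79.

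Upstream of Cdk1, a phosphatase and kinases that help to switch it on had larger log2 fold changes than Cdk1 itself, a difference that was not tested. Cdc25b, a phosphatase that removes the inhibitory phosphates from Cdk1, stood at 23.1, 19.8 and 22.4 CPM in control, 75.5, 72.3 and 65.2 with high glucose and 17.7, 23 and 24.2 with AGEs. All high glucose libraries were far above the rest, at 1.70 ± 0.13 on the log2 scale against control (edgeR adjusted p = 1.58e-05). Aurora A (Aurka), the centrosome kinase that activates Plk1, stood at 46.6, 45.8 and 55.6 CPM in control, 134, 122 and 117 with high glucose and 39, 44.8 and 59 with AGEs, with no overlap between high glucose and control (1.33 ± 0.15, edgeR adjusted p = 0.000128). Plk1, the polo kinase of mitotic entry and spindle assembly, showed the largest log2 fold change of the 48 at 1.94 ± 0.17 (edgeR adjusted p = 3.62e-05): 45.3, 43.1 and 44.3 CPM in control, 183, 166 and 160 with high glucose and 33.5, 41.3 and 58.4 with AGEs. Cdc25c, a second phosphatase of Cdk1, rose by 0.84.

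Plk4 and Foxm1 were the exceptions in this role group. Plk4, the polo kinase that starts centriole duplication and acts earlier in the cycle, was the one gene called lower, at 90.3, 80.5 and 71.6 CPM in control and 49.7, 55.3 and 63 with high glucose, with 103, 89 and 73.3 with AGEs. High glucose and control did not overlap (-0.53 ± 0.14, edgeR adjusted p = 0.0157), but the call was lost without control library 1 (adjusted p = 0.0623), without high glucose library 1 (0.0597) and with limma on FPKM (0.106 and 0.0996). Foxm1, the transcription factor known to switch on many G2 and M phase genes, stood at 80, 68.3 and 87.5 CPM in control, 123, 94.1 and 54.2 with high glucose and 76.1, 78.6 and 34.5 with AGEs. Its libraries spread more widely within high glucose than between the groups, and it was not called (0.20 ± 0.34, edgeR adjusted p = 0.686). Without high glucose library 1 its sign turned, to -0.09.

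**Figure D2:**
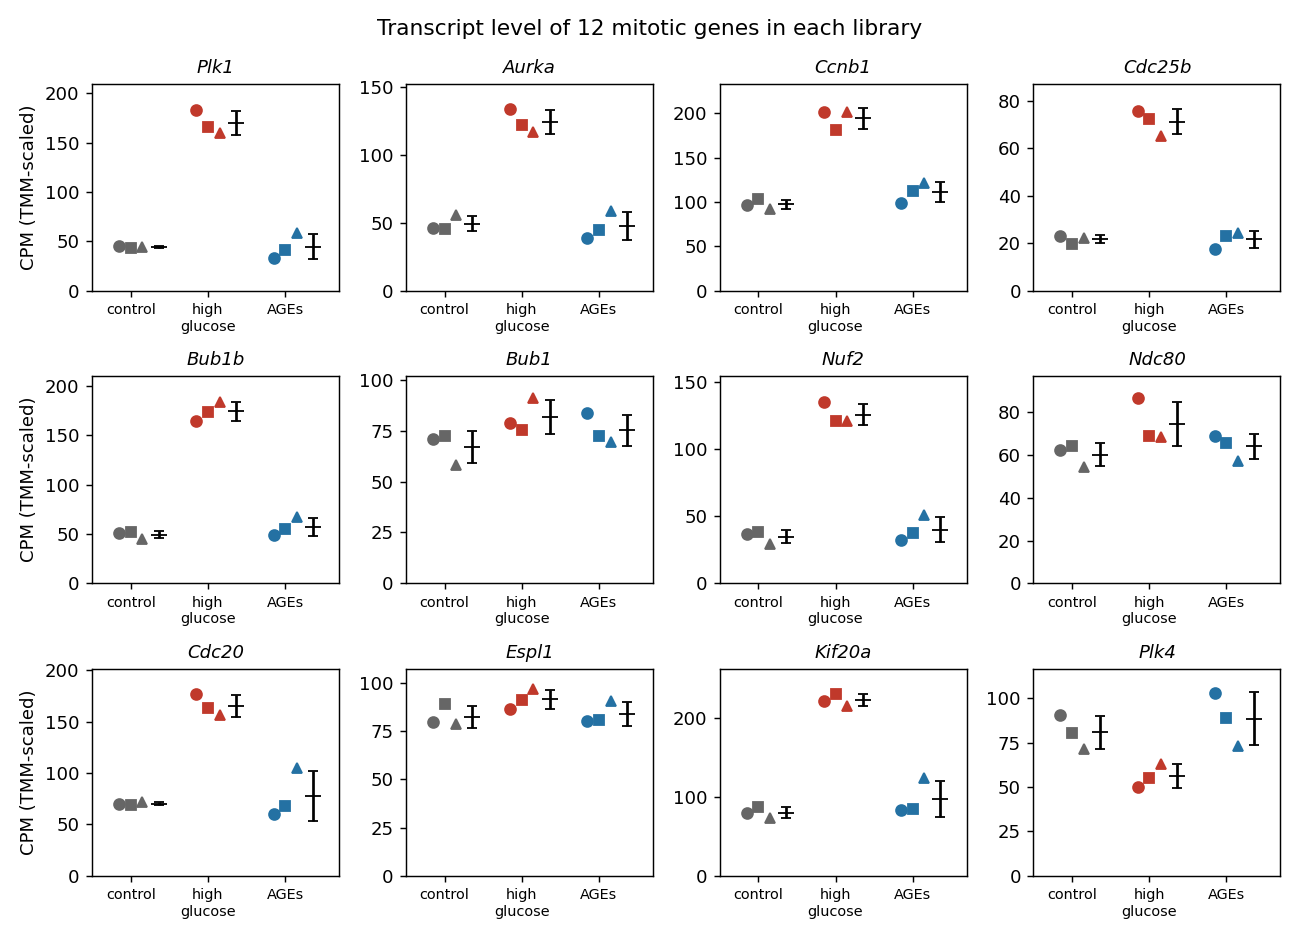
TMM-scaled CPM of 12 of the genes in each library, with circles, squares and triangles for libraries 1, 2 and 3 and black bars for the group mean ± SD (n = 3). Plk1, Aurka, Ccnb1, Cdc25b, Bub1b, Nuf2, Cdc20 and Kif20a are higher in every high glucose library, Plk4 is lower, and Bub1, Ndc80 and Espl1 lie close together.

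The spindle checkpoint genes were uneven. Bub1b, which encodes the checkpoint protein BubR1, stood at 50.7, 51.7 and 45.1 CPM in control, 165, 174 and 184 with high glucose and 49.1, 54.8 and 67.6 with AGEs. It rose by 1.83 ± 0.12 on the log2 scale in high glucose, the smallest adjusted p of the 48 (edgeR, 6.86e-06). The log2 fold changes of the other 4 were 0.34 or less. Bub3, which carries Bub1 and BubR1 to the kinetochore, stood at 136, 111 and 134 CPM in control, 148, 173 and 160 with high glucose and 120, 131 and 156 with AGEs. Its call was marginal (0.34 ± 0.12, edgeR adjusted p = 0.0477) and was lost under 10 of 18 alternatives, each of the 6 that left out a control or high glucose library among them (adjusted p from 0.0536 to 0.151). Bub1, the kinase related to BubR1, Mad2l1, the checkpoint protein Mad2, and Ttk, the checkpoint kinase Mps1, had log2 fold changes of 0.28, 0.23 and 0.31 and were not called (edgeR adjusted p = 0.0838, 0.0722 and 0.114). For Bub1 and Mad2l1 every high glucose library lay above every control library. Bub1 was called higher under 3 of 18 alternatives, and Mad2l1 and Ttk under 4 each.

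The chromosomal passenger complex, which corrects faulty attachments and later directs cytokinesis, changed by less than 2-fold throughout. Cdca8 (borealin), which ties the complex to the centromere, stood at 54.8, 52.8 and 55.4 CPM in control, 105, 105 and 91.8 with high glucose and 52.7, 52.4 and 56.8 with AGEs, 0.89 ± 0.08 higher in high glucose on the log2 scale (edgeR adjusted p = 3.35e-05). Incenp, its scaffold, stood at 124, 119 and 123 CPM in control, 180, 157 and 188 with high glucose and 117, 116 and 116 with AGEs, 0.52 ± 0.08 higher in high glucose (edgeR adjusted p = 0.000545). For both genes every high glucose library lay above every control library. The kinase Aurkb rose by 0.29 (edgeR adjusted p = 0.0241, lost without control library 1 at 0.0982 and without high glucose libraries 1 or 2 at 0.0704 and 0.0727), and Birc5 (survivin), at 0.21, was not called (edgeR adjusted p = 0.0872). Its high glucose libraries all lay above control, and it was called higher under 5 of 18 alternatives.

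Among the genes of anaphase, 3 of 4 rose at least 2-fold and separase did not. Pttg1 (securin), the inhibitor of separase, stood at 23.5, 22.1 and 17.8 CPM in control, 77.4, 71 and 66.9 with high glucose and 16.7, 21.1 and 24.8 with AGEs, 1.76 ± 0.16 higher in high glucose on the log2 scale (edgeR adjusted p = 3.67e-05). Cdc20, the activator of the anaphase-promoting complex that the checkpoint restrains, stood at 69.6, 68.8 and 71.8 CPM in control, 177, 163 and 156 with high glucose and 60.1, 67.7 and 105 with AGEs (1.24 ± 0.18, edgeR adjusted p = 0.000521). Ube2c, the ubiquitin-conjugating enzyme of the same complex, stood at 125, 113 and 120 CPM in control, 283, 264 and 239 with high glucose and 93.7, 105 and 151 with AGEs (1.13 ± 0.16, edgeR adjusted p = 0.000457). In all 3 genes high glucose was apart from control, and AGEs library 3 was the highest of the AGEs libraries. Espl1 (separase), the protease that cuts cohesin, stood at 79.7, 89.1 and 78.8 CPM in control and 86.3, 91.2 and 96.6 with high glucose, groups that overlapped (0.15 ± 0.08, edgeR adjusted p = 0.208). With an offset for GC content and length, added after the data were seen, its sign turned (-0.24, edgeR adjusted p = 0.0141), whereas with limma on FPKM it was called higher (0.29 and 0.32, adjusted p = 0.0178 and 0.0176).

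All 7 kinesins, motor proteins that move along or take apart microtubules, rose in high glucose. Kif20a, the cytokinesis motor also called MKLP2, stood at 80.2, 87.3 and 72.9 CPM in control, 222, 231 and 216 with high glucose and 84, 84.6 and 124 with AGEs (1.48 ± 0.15, edgeR adjusted p = 6.6e-05). Kif2c (MCAK), which depolymerises microtubules at the centromere, stood at 58.4, 62 and 58.2 CPM in control, 116, 119 and 128 with high glucose and 56.2, 59.9 and 62.8 with AGEs (1.02 ± 0.07, edgeR adjusted p = 1.2e-05). High glucose and control were separate in both. The motor of the central spindle Kif23 (MKLP1) rose by 1.62, the bipolar spindle motor Kif11 (Eg5) by 0.96, Kif20b by 0.79, the chromokinesin Kif4 by 0.71 and Kif18b, which limits microtubule length, by 0.45.

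At the kinetochore, 5 of 6 genes rose at least 2-fold. Nuf2, a subunit of the NDC80 complex that grips the microtubule, stood at 36.9, 38.1 and 29.1 CPM in control, 135, 121 and 121 with high glucose and 32, 37.4 and 50.8 with AGEs (1.86 ± 0.17, edgeR adjusted p = 4.08e-05). Cenpf, a large protein of the outer kinetochore, stood at 45.9, 55.9 and 37.2 CPM in control, 156, 129 and 184 with high glucose and 61.6, 52.7 and 70.1 with AGEs (1.75 ± 0.18, edgeR adjusted p = 7.34e-05). Neither gene overlapped between high glucose and control. The kinetochore motor Cenpe rose by 1.32, the NDC80 subunit Spc25 by 1.24 and Cenpa, the histone variant that marks the centromere, by 1.06.

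Ndc80, which gives the NDC80 complex its name, was not among them. It stood at 62.2, 64.3 and 54.2 CPM in control, 86.5, 68.9 and 68.5 with high glucose and 69, 65.8 and 57.4 with AGEs (0.31 ± 0.12, edgeR adjusted p = 0.0668), although all 3 high glucose libraries were above control. The protein complex holds 1 copy each of Ndc80, Nuf2, Spc24 and Spc25. As a ratio of FPKM, Nuf2 to Ndc80 was 0.608, 0.607 and 0.549 in control, 1.6, 1.79 and 1.82 with high glucose and 0.475, 0.582 and 0.905 with AGEs. Spc25 to Ndc80 was 1.57 ± 0.0495 in control, 3.02 ± 0.15 with high glucose and 1.3 ± 0.131 with AGEs. Spc24, which is not one of the 48, went the other way, from 1.28 ± 0.172 of Ndc80 in control to 0.775 ± 0.09 in high glucose, and it was also 0.807 ± 0.039 in AGEs. The transcripts of the 4 subunits thus stood in different proportions in high glucose and control, whatever the scaling between libraries.

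**Figure D3:**
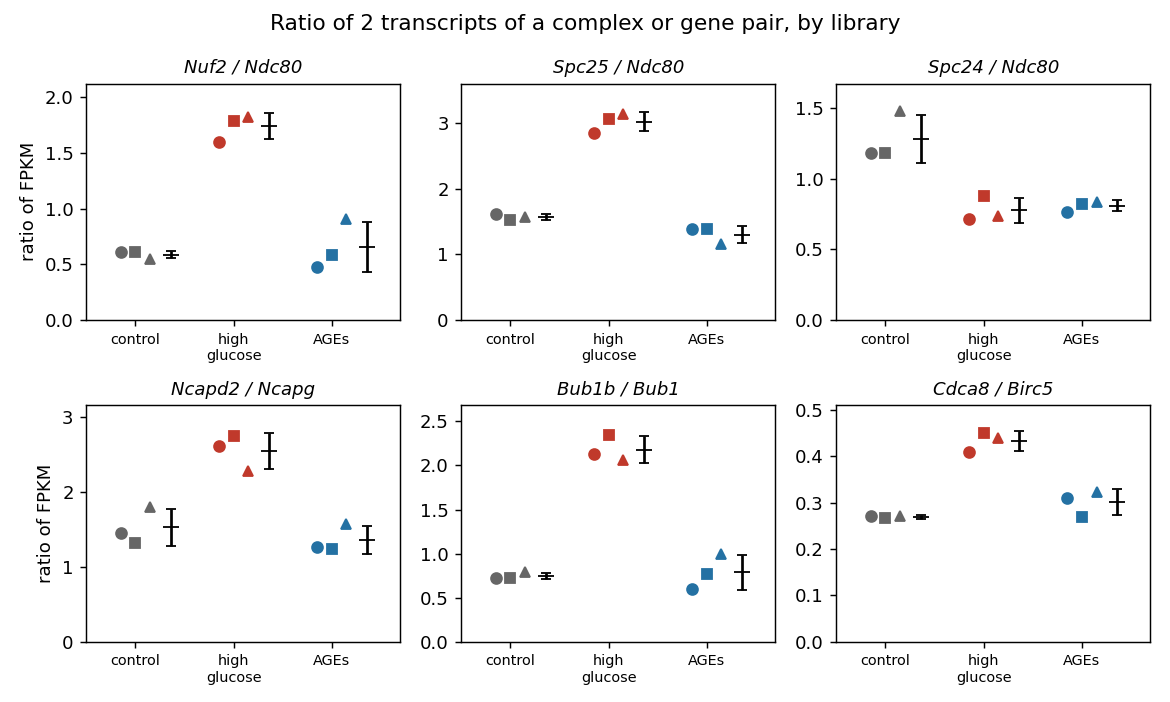
Ratio of the FPKM of 2 genes that encode subunits of a complex or related proteins, in each library (circle, square and triangle for libraries 1, 2 and 3), with group mean ± SD (n = 3). The pairs were chosen after the values were seen and carry no test. Nuf2/Ndc80, Spc25/Ndc80, Ncapd2/Ncapg, Bub1b/Bub1 and Cdca8/Birc5 are higher in every high glucose library than in every control library, and Spc24/Ndc80 is lower.

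The same unevenness stood in other pairs. Bub1b to Bub1 was 0.748 ± 0.0368 in control, 2.18 ± 0.152 with high glucose and 0.787 ± 0.199 with AGEs, as FPKM ratios (SD, n = 3). Cdca8 to Birc5 was 0.269 ± 0.00351, 0.433 ± 0.021 and 0.301 ± 0.0274. Ncapd2 to Ncapg, 2 subunits of condensin I, was 1.53 ± 0.249, 2.55 ± 0.241 and 1.36 ± 0.186. A ratio within a library shows unequal change of the pair and not which of them changed.

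Of the 6 genes of spindle assembly and cytokinesis, 5 rose. Nusap1, which bundles spindle microtubules, stood at 36.4, 38.9 and 29.6 CPM in control, 110, 85 and 98.2 with high glucose and 33.9, 39.1 and 40.5 with AGEs (1.48 ± 0.13, edgeR adjusted p = 3.74e-05). Hmmr, the hyaluronan-mediated motility receptor, which also acts on the spindle, stood at 34.5, 37.8 and 28.3 CPM in control, 81.7, 67.1 and 82.8 with high glucose and 33.3, 33.1 and 39.9 with AGEs (1.20 ± 0.14, edgeR adjusted p = 0.000126). High glucose lay above control in every library of both. Prc1, which bundles the central spindle, rose by 0.83, Tpx2, the activator of Aurora A, by 0.52 and Ect2, the exchange factor that starts the cleavage furrow, by 0.47. Anln (anillin), the scaffold of the contractile ring, stood at 237, 257 and 191 CPM in control, 289, 246 and 304 with high glucose and 271, 249 and 321 with AGEs, and it was not called (0.29, edgeR adjusted p = 0.115). With limma on FPKM it was called higher (0.46 and 0.47, adjusted p = 0.0205 and 0.0199).

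Chromosome structure genes rose in 4 of 6 cases. Top2a, the topoisomerase that untangles sister chromatids, stood at 443, 480 and 349 CPM in control, 908, 803 and 971 with high glucose and 452, 463 and 644 with AGEs (1.08 ± 0.16, edgeR adjusted p = 0.000638). Mki67, whose product Ki-67 coats mitotic chromosomes and serves as a marker of proliferation, stood at 136, 179 and 121 CPM in control, 321, 261 and 346 with high glucose and 165, 145 and 149 with AGEs (1.09 ± 0.15, edgeR adjusted p = 0.000443). Ncapd2, a condensin I subunit, stood at 118, 112 and 119 CPM in control, 227, 210 and 207 with high glucose and 116, 106 and 129 with AGEs (0.88 ± 0.08, edgeR adjusted p = 4.19e-05). High glucose was above control in every library of these 3 genes.

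The other condensin genes had smaller log2 fold changes. Smc4 was called at 0.41 ± 0.12 (edgeR adjusted p = 0.0192), but its groups overlapped, at 189, 212 and 165 CPM in control and 273, 212 and 270 with high glucose. That call was lost without any one of control libraries 1 and 3 and high glucose libraries 1 and 3 (adjusted p from 0.0573 to 0.0742). Ncapg was at 0.13 and Smc2 at 0.06, and neither was called (edgeR adjusted p = 0.377 and 0.752). The sign of Smc2 turned without control library 3 (-0.06) or high glucose library 3 (-0.01).

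**Figure D4:**
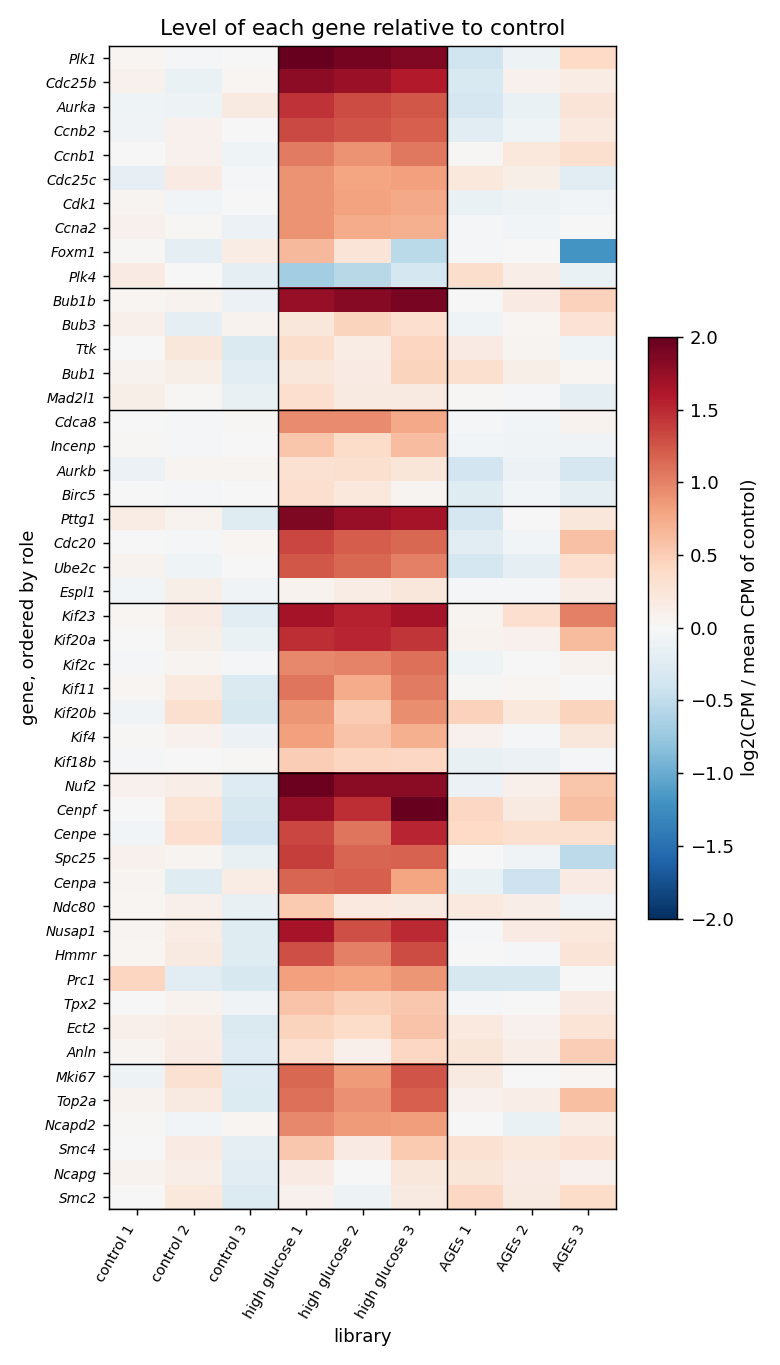
Level of the 48 genes in each of the 9 libraries as log2 of CPM over the control mean, from blue (lower) to red (higher), in role order. The 3 high glucose columns are red for most genes and blue for Plk4, and AGEs library 3 is redder than AGEs libraries 1 and 2 for Kif23, Cdc20, Kif20a and Top2a.

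AGEs against control asked the same of glycated protein. None of the 48 genes was called in either direction (edgeR), and none was called by DESeq2 or limma either. At an unadjusted p under 0.05 there were 4 of the 48, and 12.4% of all genes. After adjustment, over all genes 0.0509% were called higher and 0.0339% lower, so that few calls were made anywhere. The log2 fold changes of the 48 ran from -0.32 to 0.53 with a median of 0.05, and the smallest adjusted p was 0.317. Leaving out AGEs library 3, or any other library, also gave 0 calls.

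In the direct comparison of the treatments, 35 of the 48 genes were lower with AGEs than in high glucose and 1, Plk4, was higher (edgeR), where 20.2% of all genes were called lower and 19.7% higher. The largest log2 fold change was that of Plk1, at -1.93 ± 0.17 (edgeR adjusted p = 3.33e-05), followed by Pttg1, at -1.78 ± 0.16 (3.17e-05), Cdc25b, at -1.71 ± 0.13 (1.33e-05), and Nuf2, at -1.65 ± 0.17 (7.33e-05). Mad2l1 and Birc5, not called against control, were lower with AGEs than in high glucose, and Bub3, Kif20b, Ect2 and Smc4, higher than control in high glucose, were not called here. Bub3 was called lower without AGEs library 3 (-0.35, edgeR adjusted p = 0.0374) and with limma on FPKM (adjusted p = 0.0132 and 0.013). Plk4 was 0.66 ± 0.14 higher with AGEs (edgeR adjusted p = 0.00512). Without AGEs library 3 the counts were again 35 and 1. This comparison shares the high glucose libraries with the one above, and high glucose and AGEs share the controls, so the comparisons are not independent of each other. The doses, in mmol/L of glucose and µg/mL of AGEs, are not matched.

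AGEs library 3 differed from its own replicates in these genes. It was the highest of the AGEs libraries for 30 of the 48. For 26 genes it lay above every other control and AGEs library, and for 23 of those it was also below every high glucose library. The largest ratio to the next of these libraries was in Kif23, at 81.9 CPM against 51.4, with at least 118 in high glucose, followed by Cdc20 at 105 against 71.8. Of the 37 genes that rose in high glucose, 28 were highest in AGEs library 3 among the AGEs libraries, and of the other 11 it was 2. Across the 48 genes, the log2 ratio of AGEs library 3 to the other AGEs libraries and the high glucose change, which share no library, had Pearson r = 0.60 and Spearman rho = 0.64, and across all 17680 genes 0.04 and 0.12. These are correlations over genes, which are not independent replicates, the pattern was noticed in the data, and a single library carries no test. Within control, library 3 was the lowest for 31 of the 48 and library 2 the highest for 28. The median log2 ratio of AGEs library 3 to the other AGEs libraries was 0.15 over the 48 and 0 over all genes tested. The counts of highest and lowest libraries were not made over all genes. Whether those counts are particular to the 48 is therefore not known.

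Other genes of the cell cycle, listed by function, show how far the change reached. Of 129 other mitotic genes tested, 55 were higher in high glucose, 19 lower and 55 not called (edgeR), with a median log2 fold change of 0.21. The list of kinases, cyclins and subunits of the anaphase-promoting complex also holds other genes, such as Lmnb1. It had the highest median of these lists, at 0.49, with 18 of 29 higher and 3 lower. Ccnf, the F-box protein cyclin F, rose by 1.43 ± 0.07 (edgeR adjusted p = 2.04e-06) and Lmnb1, lamin B1 of the nuclear envelope, by 1.18 ± 0.08 (7.35e-06). Pkmyt1, a kinase that holds Cdk1 inactive, fell, from 106, 92.3 and 110 CPM in control to 49.5, 46.9 and 43.1 with high glucose (-1.14 ± 0.09, edgeR adjusted p = 2.26e-05). It was opposite in direction to Cdc25b, which undoes its phosphorylation. On the same list, Wee1 and Cdc25a, chosen after their values were seen, went the other way. Wee1, another kinase that holds Cdk1 inactive, rose (0.55 ± 0.11, edgeR adjusted p = 0.00272). Cdc25a, a phosphatase related to Cdc25b, fell (-0.24 ± 0.08, edgeR adjusted p = 0.0345).

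Spindle and cytokinesis genes outside the 48 were higher in 23 of 42 cases and lower in 5, with a median of 0.46. Tubb4b, a beta-tubulin, rose by 1.44 ± 0.11 (edgeR adjusted p = 1.58e-05), Racgap1, the partner of Kif23 in the centralspindlin complex, by 1.29 ± 0.12 (3.56e-05) and the motor Kifc1 by 0.79 ± 0.08 (5.33e-05). The list of condensin and cohesin genes also holds genes of neither complex, Cdca2, Cdca3, Cdca7 and Top2b among them. Of its 20 genes 6 were higher and 3 lower, with a median of 0.2, beside 19.6% higher and 19.7% lower over all genes. Ncaph of condensin I was at 0.79 ± 0.08 (edgeR adjusted p = 4.66e-05). Cdca2 was at 1.03 ± 0.10 (6.05e-05) and Cdca3 at 0.94 ± 0.11 (0.000157).

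The list of other kinetochore genes also holds a gene of the centriole, Cenpj, which was called higher (edgeR). Of its 38 genes tested, 8 were higher and 8 lower, shares close to the 19.6% and 19.7% of all genes, with a median of 0.01. The 3 with the smallest p all fell: Dsn1, of the MIS12 complex, by 0.87 on the log2 scale (edgeR adjusted p = 0.000234), and Cenpn and Cenpq, of the inner kinetochore, by 0.91 (0.000391) and 0.90 (0.000406). Dsn1 stood at 86, 95.3 and 82.9 CPM in control and 47.6, 47.9 and 49.1 with high glucose, groups well apart. The largest rise, and the 1 called change of at least 2-fold, was that of Knl1, the outer kinetochore scaffold, at 1.03 ± 0.19 (edgeR adjusted p = 0.0022), a gene chosen after its value was seen.

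Genes of DNA replication, the step before mitosis, leaned the other way. Of 48 tested, 24 were lower in high glucose and 5 higher, with a median of -0.26 (edgeR). Orc2, of the origin recognition complex, fell by 1.08 (adjusted p = 1.57e-05), Mcm10 by 1.07 (3.87e-05) and Cdc6, the loader of the replicative helicase, by 0.83 (1.2e-05). On FPKM with limma the split was 11 lower and 8 higher. This alternative, which changes both the test and the values tested, moved the split over all genes as well, from 3466 higher and 3480 lower with edgeR to 5237 and 2400, and the median of all genes from 0.03 to 0.08, and to 0.17 with the smaller pseudocount of 0.1. The 48 mitotic genes had a median of 0.98 with the first of these pseudocounts and 1.05 with the second.

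**Figure D5:**
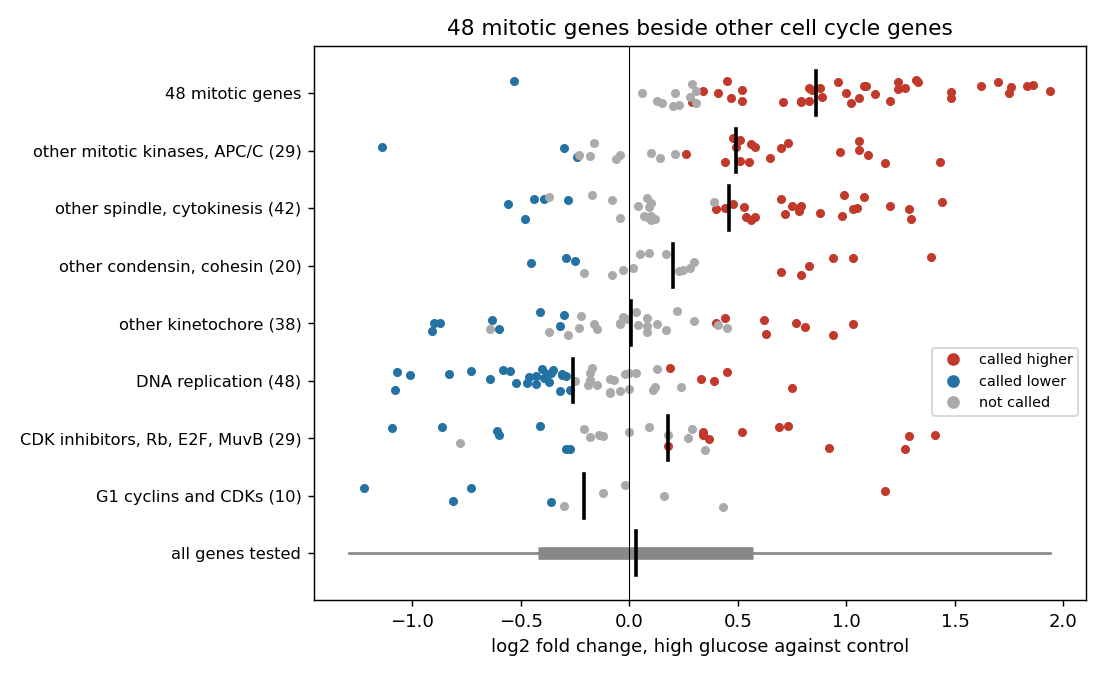
Log2 fold change in high glucose against control (edgeR) of the 48 mitotic genes and of 7 other lists, with the number tested in brackets, a point per gene coloured by call and a black line at each median. For all 17680 genes the grey bars span the 5th to 95th and the 25th to 75th percentiles. The medians run from 0.86 in the 48 mitotic genes to -0.26 in DNA replication.

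Inhibitors and regulators of the cycle were mixed. Of 29 genes that encode inhibitors of cyclin-dependent kinases, Rb and E2F family members and subunits of the MuvB and NF-Y complexes, 11 were higher, 7 lower and the median was 0.18 (edgeR). Cdkn1a (p21), the inhibitor that blocks the cell cycle downstream of p53, stood at 119, 123 and 141 CPM in control, 84, 88.3 and 81.5 with high glucose and 123, 126 and 84.6 with AGEs. High glucose and control did not overlap (-0.60 ± 0.14, edgeR adjusted p = 0.0086), and with limma on FPKM the adjusted p was 0.055 and 0.0537. Lin52, a core subunit of MuvB, fell by 1.09 (edgeR adjusted p = 0.000234), while Cdkn2b (p15) rose by 0.92 ± 0.13 (0.000384) and Rbl2 (p130) by 0.52 ± 0.08 (0.000506). Of 10 G1 cyclins, kinases and their relatives 4 were lower and 1 higher, with Cdk4 lower by 0.73 ± 0.07 (edgeR adjusted p = 5.74e-05). Of the atypical cyclins on that list, Ccng1 fell by 1.22 ± 0.16 (edgeR adjusted p = 0.000346) and Ccng2 rose by 1.18 ± 0.16 (0.00036).

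Reads shared with neighbours could bear on a few values, since whether reads were counted by strand is not stated in the labels or the file. Kif20a shares 29.3% of its exonic bases with Cdc23 on the opposite strand, and Cdc23 was not called (0.14, edgeR adjusted p = 0.141). Ube2c shares 22.8% with Tnnc2, which was not called either (0.03, edgeR adjusted p = 0.915). Kif4 shares 15.1% with Pdzd11 and Ccna2 12.5% with Exosc9, both of which fell in high glucose, by 0.45 (edgeR adjusted p = 0.00607) and 0.51 (0.0325). Ncapg shares 13.4% with Lcorl, which was not called (-0.05, edgeR adjusted p = 0.879) and held 14126 counts in all against 57168 for Ncapg. Cdc25c shares 12.7% with Gm3550, which held 104 counts in all. Prc1 shares 11.1% with Rccd1, which was not called (-0.40, edgeR adjusted p = 0.221). Opposite Plk1, over 7.09% of its exonic bases, lies Gm44985, which was called higher in high glucose (edgeR adjusted p = 0.0436) on few counts, 0, 6 and 0 in control and 49, 28 and 28 with high glucose, out of 145 in all 9 libraries against 53821 for Plk1. Spef1, opposite 2.47% of Cdc25b, was at 0.81 and not called (edgeR adjusted p = 0.0696). How many reads such pairs share was not tested. The pseudogene Ccnb1-ps held 1819 counts over all 9 libraries.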

How the data were processed

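The authors deposited 1 table with read counts per gene and FPKM per gene (values relative to transcript length and library size), each for all 9 libraries, per the file headers. The tools named are cutadapt 1.9 and FastQC, with GRCm38 as the build, per the submitters' processing notes. Not given in the sources used here were the aligner, the counter, the gene annotation and the handling of strand, so reads of overlapping genes and of copies such as pseudogenes are uncertain. The groups are those of the sample labels, and all 55385 genes entered the table as deposited.

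Counts were tested in R 4.3.3 with edgeR 4.0.16 (filterByExpr, TMM scaling, glmQLFit and glmQLFTest, two-sided), in 1 fit of all 9 libraries with 3 group means. This left 17680 genes, with a common biological coefficient of variation of 0.278. Benjamini-Hochberg adjustment ran over all genes tested, with calls at an adjusted p under 0.05. CPM are scaled by the TMM factors, and the SE is the log2 fold change over the square root of F. The test was checked on simulated counts and missed a first limit on the number of changed genes recovered. It passed limits on recovery, false calls and the estimated change that were set after that. The simulated counts had less spread than the common coefficient of variation given above, and only genes with higher counts were changed. The check therefore says little about recovery or false calls in these data. Alternatives were DESeq2 1.42.0, its size factors in edgeR, limma 3.58.1 on log2(FPKM + 1) and log2(FPKM + 0.1), no filter or a mean CPM of at least 1, fits of 2 groups only, each library left out, the replicate number as a block, and an offset for GC content and length, the last added after the data were seen. Annotation overlaps came from GENCODE M21, in which 46 of the 48 genes have the deposited ID, start, end and strand.

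The genes and lists were chosen with earlier results of these data known. By a fixed rule, values in every library are given for the 2 genes of smallest p in each of 8 role groups and for Cdk1, Ccnb1, Bub1b, Mki67, Top2a, Foxm1, Cdc20, Cdc25b, Bub3 and Aurka, and up to 3 called genes of smallest p from each other list are named, with Cdkn1a. Library values of Plk1, Plk4, Espl1, Ndc80, Anln and Smc4, the ratio pairs, the promoters shown, the joint count over other mitotic genes and the pattern of AGEs library 3 were chosen after the data were seen. One marker of the podocyte list is not reported here.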

Additional observations from a re-analysis of the deposited data

How the results depend on the processing

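Of the 38 genes called in high glucose, 34 kept their call and direction under all 18 alternatives, and Plk4, Bub3, Aurkb and Smc4 lost it under some. Of the 10 not called, 8 gained a call under some. Called higher were 36 to 44 genes with all libraries in the fit (44 with limma on FPKM, 41 with the GC content and length offset) and 34 to 37 with a library left out. Called lower was 0 with limma and 0 to 1 with a library left out (0 without control library 1 or high glucose library 1), and 2 with the GC content and length offset, which also gave 2 genes higher with AGEs than in high glucose. Among the other mitotic genes 6 were called lower with limma and 12 to 19 with a library left out (12 without control library 1 or high glucose library 2). For DNA replication, limma called 8 higher and 11 lower, and leaving out a library gave 2 to 5 higher (2 without control library 1 or high glucose library 1, 3 without high glucose library 2). Signs turned, on the log2 scale, for Foxm1 (-0.09 to 0.46 with a library left out, the lowest without high glucose library 1, and -0.02 with the GC content and length offset), Espl1 (-0.24 with that offset) and Smc2 (-0.06 to 0.19 with a library left out, below 0 without control library 3 or, at -0.01, high glucose library 3). As a share of summed FPKM the 48 genes came to 0.222%, 0.489% and 0.236% in control, high glucose and AGEs. The cause of these differences was not tested.

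Libraries with the same number did not deviate together, with r from -0.07 to 0.08 over 9 pairs, so no pairing by number was seen. Such correlations can miss a pairing, and whether libraries of the same number were handled together is not known. With the replicate block, 38 of the 48 genes were higher and 1 lower in high glucose, 35 lower and 1 higher with AGEs than in high glucose, and 3 DNA replication genes were higher. Bub3 lost its call (adjusted p = 0.0646), and Mad2l1 (0.036) and Ndc80 (0.0376) gained one.

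Calls of genes with small changes depend on the processing: Espl1 was called higher with limma on FPKM (0.29 and 0.32) and lower with the GC content and length offset, and Ncapg higher with that offset (0.2, adjusted p = 0.0116). No group was large enough for a search for outlying libraries.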
